A study of Mus musculus with 24 samples.

Results

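The Hox genes of the embryonic mouse gut were followed here as a family, in embryos lacking the receptor Ret, the guidance cue Sema3d or both. The members were taken by gene symbol: 38 Hox genes were listed, and 36 of them had a protein-coding row in all 4 of the authors' deposited tables, out of 26260 genes in the table that covers every gut. These 36 comprised 10 genes of the Hoxa cluster, 10 of Hoxb, 7 of Hoxc and 9 of Hoxd. The other two, Hoxc12 and Hoxc13, are not analysed here.

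Hox genes encode homeodomain transcription factors that give cells their position along the head-to-tail axis. They lie in 4 clusters, and the members that occupy the same place in different clusters form a paralogue group, numbered from 1 at the anterior end to 13 at the posterior end. Within a cluster the low-numbered genes are switched on earlier and further forward than the high-numbered ones, so that a gut carries a different set of Hox transcripts in its stomach, midgut and hindgut. The mesenchyme of the gut wall expresses them in nested domains, and neural crest cells bring transcripts of the groups active at their own level of origin.

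RNA was measured in whole guts at embryonic day 12.5, on a mixed strain background of C57BL/6, 129/Sv and C3H, with 6 guts of each of 4 genotypes (wildtype, ret_null, sema3d_null and ret_sema3d_double_null in the labels) and 3 guts of each sex per genotype. Poly-A RNA of each gut gave 1 stranded library, and the labels do not say how the guts fall into litters. The deposited values are the authors' DESeq fits: a coefficient per gene and comparison, 2 deviances and a p-value, so a gene is described here by its fitted level in each genotype, the size of the coefficient and an error derived from the deviances, and values per gut were not analysed here. The comparisons with wildtype share the same 6 wildtype guts. The whole gut is a mixture of cell types, so fewer cells of a type and less RNA per cell cannot be told apart in any value below.

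The targeted genes were read first. Ret, the receptor for GDNF-family ligands that enteric neural crest cells need, was fitted at 0.309% of the wildtype level in Ret null guts and at 0.0759% in double null guts. Sema3d, a secreted semaphorin, was fitted at 47.8% of wildtype in Sema3d null guts and at 48.6% in double null guts; the labels do not say which part of that gene the allele removes. In Ret null guts Sema3d was called lower as well, at 83.1% of wildtype (adjusted p 0.000882 in the authors' deposited table, DESeq). Of 12 markers of enteric neural crest and neurons, 10 were called lower in Ret null, 12 in double null and 0 in Sema3d null guts. Over all genes 2.27, 1.87 and 0.0202% were called lower, in the same order. The summed fitted level of the 12 was 7782 in wildtype, 3230 with Ret null, 7079 with Sema3d null and 3189 in double null guts, and none of the 12 was at 0. A call means an adjusted p below 0.05 in the authors' deposited table, and a fitted level is in normalised counts.

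Promoter letters are shown for 3 members that the results below turn on: Hoxd3, which had the largest change, Hoxb8, the member called higher, and Hoxd10, a posterior gene whose guts scattered widely. RefSeq windows (GRCm38.p6, up to 250 bases before the transcription start, on the plus strand of the chromosome, which is the genes' own strand) were matched for 22 members; Hoxb5 and Hoxb3 were not among them. Capitals mark matches on either strand to the motifs searched, which may overlap. These were TTTATG for CDX factors, TGATNNAT for the composite of PBX with a Hox protein, the homeodomain core TAATTA, and the box named TATA with the letters TATAAA.
Hoxd3, chr2:74711743-74711926: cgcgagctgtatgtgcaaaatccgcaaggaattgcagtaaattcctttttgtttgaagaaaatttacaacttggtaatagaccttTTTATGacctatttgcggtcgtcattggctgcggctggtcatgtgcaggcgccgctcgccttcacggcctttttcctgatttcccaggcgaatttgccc
Hoxb8, chr11:96281655-96281904: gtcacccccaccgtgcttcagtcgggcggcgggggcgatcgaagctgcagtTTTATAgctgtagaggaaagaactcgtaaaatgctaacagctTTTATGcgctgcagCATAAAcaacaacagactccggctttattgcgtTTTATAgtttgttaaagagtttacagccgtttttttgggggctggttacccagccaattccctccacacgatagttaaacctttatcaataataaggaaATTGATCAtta
Hoxd10, chr2:74691641-74691890: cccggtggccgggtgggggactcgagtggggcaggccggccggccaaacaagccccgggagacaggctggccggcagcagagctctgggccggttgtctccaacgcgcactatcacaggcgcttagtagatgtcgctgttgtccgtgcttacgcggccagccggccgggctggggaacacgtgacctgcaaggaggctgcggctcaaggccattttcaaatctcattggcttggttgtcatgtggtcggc

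The Hoxd3 window, trimmed to 184 bases, held 1 CDX match. The Hoxb8 window held 1 PBX-HOX composite match, 2 CDX matches and 2 TATA matches, and the Hoxd10 window held none. CDX factors are caudal homeodomain proteins that act on Hox genes in the posterior embryo, and PBX proteins are Hox partners on DNA. Over the 22 members, each counted if any of its windows matched, the composite was matched in 4, CDX in 5, the homeodomain core in 1 and TATA in 4. Among all 32851 windows, counted singly, the shares were 7.68, 10.8, 4.84 and 12.4%, in the same order. A gene can have more than 1 window, so the counts per member and the shares per window are unlike measures. A match is a description of letters only. The base composition also differed, with 47.3% G and C in the Hoxd3 window, 44.4% in Hoxb8 and 65.6% in Hoxd10.

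In wildtype guts the Hox transcripts were led, per kb of exon, by paralogue groups 4 and 5. To compare genes, each fitted wildtype level of the 24-gut table was divided by the length of the gene's merged exons. Hoxa5, which patterns the lung, trachea and stomach, had the highest level, at 385 normalised counts per kb. Hoxa4 followed at 284, Hoxb3 at 261, Hoxb4 at 241, Hoxb5 at 188, Hoxb8 at 163, Hoxb6 and Hoxc4 at 158 each, Hoxb2 at 139 and Hoxc5 at 130 per kb. These were the 10 highest members, and apart from Hoxb8 and Hoxb6 they belong to groups 2 to 5. Groups 4 and 5 together held 43.3% of the summed level per kb of the 36 genes, groups 1 to 3 held 20.5% and groups 9 to 13 held 14.1%. The lead of group 4 and of group 5 over group 3 rests on the division by length. Undivided, Hoxa3, Hoxb3 and Hoxd3 stood at 535, 1111 and 347. Hoxa4, Hoxb4, Hoxc4 and Hoxd4 stood at 453, 617, 407 and 209, and Hoxa5, Hoxb5 and Hoxc5 at 723, 525 and 400.

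The clusters were unequal. The Hoxb genes held 37.7% of the summed wildtype level per kb, the Hoxa genes 34.8%, the Hoxc genes 14.4% and the Hoxd genes 13.1%. The median gene stood at 149 normalised counts per kb in Hoxb, 76.7 in Hoxa, 71.0 in Hoxc and 47.7 in Hoxd. Per kb, the levels did not fall evenly toward the posterior end: within Hoxd, Hoxd10 was the highest member at 92.5 per kb, above Hoxd3 at 82.8 and Hoxd4 at 70.9. This order rests on the division by exon length: the undivided wildtype levels were 347 for Hoxd3, 209 for Hoxd4, 183 for Hoxd11 and 168 for Hoxd10, and over the family Hoxb3 at 1111 then stood above Hoxa5 at 723. Hoxa10 at 66.8 per kb likewise stood above Hoxa9 at 35.3 and Hoxa11 at 35.8.

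The terminal genes were present at low levels. Hoxd13, which with Hoxa13 patterns the hindgut, the anal sphincter and the limb tips, was fitted at 25.8 per kb in wildtype, Hoxa13 at 18.9 and Hoxb13 at 4.57. Hoxa11 stood at 35.8, Hoxc11 at 4.47, Hoxd11 at 43.4 and Hoxd12 at 9.44 per kb. The lowest of all was Hoxd1 at 2.39 per kb, and the other member of group 1, Hoxb1, a gene of the hindbrain, stood at 8.97. No member was fitted below 1 normalised count in wildtype. An error for a level cannot be had from the tables, so neighbours in this order, such as Hoxb6 and Hoxc4, are not shown to differ; across the 4 tables the fitted wildtype level of one gene ranged by 1.03 to 1.07 times.

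**Figure D1:**
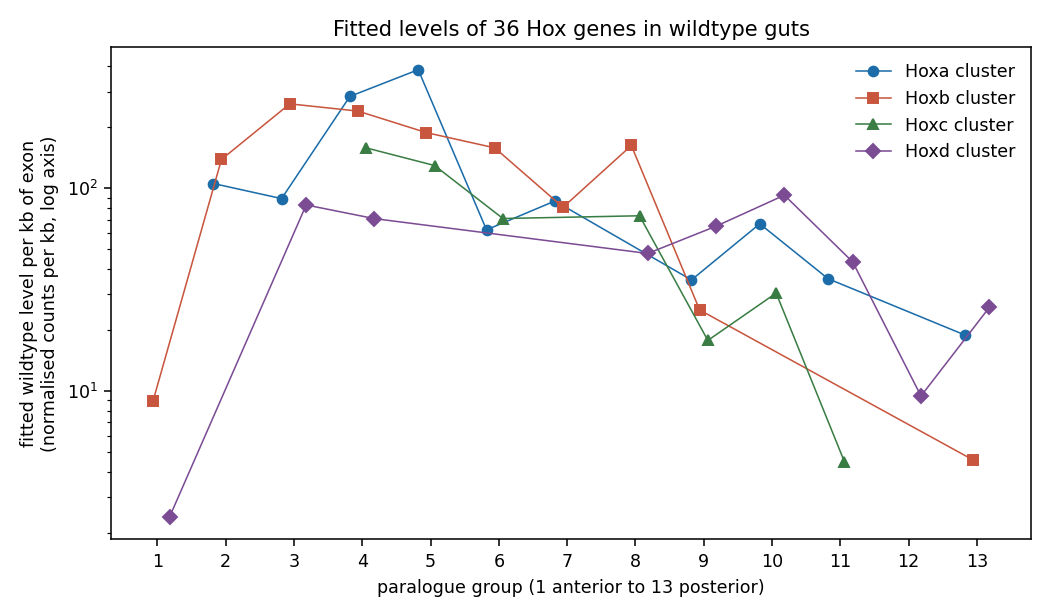
Fitted wildtype level per kb of merged exon (normalised counts per kb, log axis) against paralogue group for 36 Hox genes, 1 point per gene, joined within each cluster. Groups 4 and 5 are highest in Hoxa and Hoxc, Hoxb peaks at Hoxb3 with 261 per kb, and the Hoxd line has its maximum at Hoxd10 with 92.5 per kb; undivided by length, Hoxd3 at 347 stood above Hoxd10 at 168.

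Hoxd3 showed the largest genotype difference of the family. This gene of group 3 patterns the first neck vertebrae, and it lies on chromosome 2 from 74711927 to 74748442 (plus strand, GRCm38). Its fitted level was 347 in wildtype, 78.4 in Ret null, 320 in Sema3d null and 71.8 in double null guts, so both genotypes without Ret stood far below the others. The log2 coefficient in the authors' deposited table was -2.18 ± 0.17 for Ret null, with an adjusted p of 2.34e-36, and -2.27 ± 0.15 for double null, with an adjusted p of 5.32e-50 (authors' DESeq likelihood ratio test, recomputed from the deviances). For Sema3d null it was -0.11 ± 0.14 and not called. The interaction coefficient was -0.013 ± 0.26, with a 95% interval from -0.53 to 0.51.

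The guts behind the Ret null value of Hoxd3 scattered widely. The residual deviance measures how far guts lie from their fitted means, relative to the variance the model allows, and for Hoxd3 it was 84.3 on 9 degrees of freedom in the Ret null table, rank 1 of 24602 genes. It was 12.0 in the double null table and 8.18 in the Sema3d null table. An alternative, called here the test scaled by the scatter, was chosen after seeing the data. It divided the deviance difference by the residual deviance per degree of freedom. It also took p from an F distribution in place of chi-square, which gives larger p-values at 9 degrees of freedom. By this test the adjusted p of Hoxd3 was 0.0849 in Ret null and 4.03e-05 in double null. The Ret null call was lost and the double null call was not. The division alone took the derived error in Ret null from 0.17 to 0.51, still small beside the coefficient of -2.18. The F distribution then gave an unadjusted p of 0.00209. A chi-square p after the division was not computed, so the loss is not put down to the scatter alone. Whether 1 gut or several carried the scatter was not analysed here.

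Hoxd3 also shares sequence with its neighbours. Its annotated start lies 2 bases before that of Hoxd4, and 62.3% of its exon bases also belong to Hoxd4 or to Gm28230, an overlapping protein-coding row; the level of each of these rows is therefore uncertain. Hoxd4, of group 4, was fitted at 209 in wildtype, 191 in Ret null, 202 in Sema3d null and 198 in double null guts. Gm28230 was fitted at 244, 213, 264 and 246 in the same order. Neither was called in any table, and the sum of the 3 rows was 60.3% of wildtype in Ret null, 98.3% in Sema3d null and 64.5% in double null guts.

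No other Hoxd gene was called. Hoxd1, the next Hox gene on the anterior side, known from pain-sensing neurons, had coefficients of -1.29 ± 0.74 in Ret null and -0.92 ± 0.69 in double null at a fitted wildtype level of 4.44, and was not called. Hoxd8 on the other side was at -0.0024 ± 0.25 and 0.17 ± 0.18. Gm14424, a long non-coding RNA, lies between Hoxd3 and Hoxd1 (chromosome 2, 74752684 to 74753744). Its coefficient was -2.64 ± 0.82 in Ret null, adjusted p 0.0498 in the authors' deposited table (DESeq), and -2.66 ± 0.82 in double null, adjusted p 0.0523. In the scaled test its Ret null adjusted p was 0.0587, through the adjustment over all genes only. At a residual deviance of 6.32 its own p was not scaled. Its wildtype level was 5.14. The antisense transcript Hoxd3os1 went the other way, at 0.94 ± 0.45 and 0.77 ± 0.35, without a call. Whether the counting used strand is not stated, so reads of a gene and its antisense partner may not be separable.

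**Figure D2:**
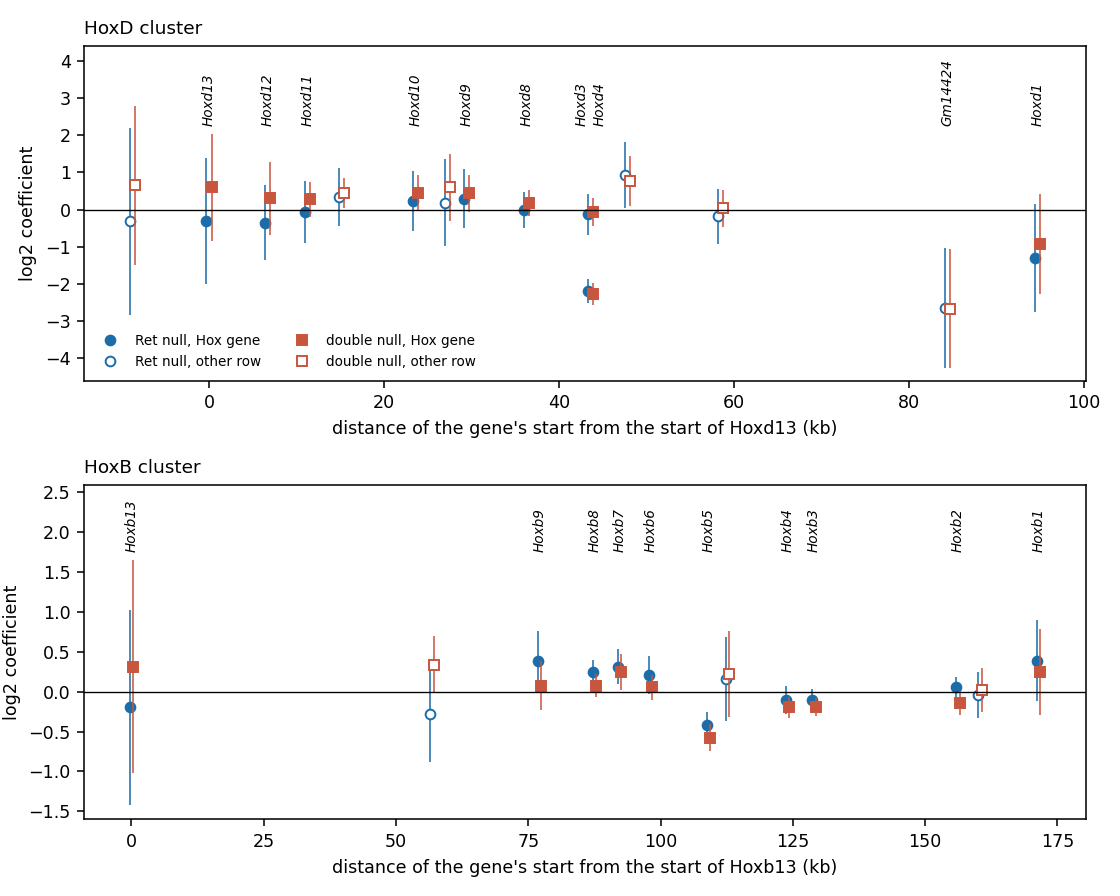
Log2 coefficient with its 95% interval for each row of the HoxD (top) and HoxB (bottom) clusters fitted at 4 or more in wildtype, plotted by the distance in kb of its start from that of Hoxd13 or Hoxb13; circles are Ret null and squares double null, filled for Hox genes and open for other rows. Hoxd3 at -2.18 and -2.27 stands apart from Hoxd4, whose start lies beside it, and Hoxb5 at -0.41 and -0.58 lies below both of its neighbours.

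Hoxb5 fell in both genotypes that lack Ret. HOXB5 protein is known to bind regulatory DNA of RET in enteric neural crest, and the gene is also expressed in gut and lung mesenchyme; it lies on chromosome 11 from 96303336 to 96306121 (plus strand, GRCm38). Its fitted level was 525 in wildtype, 394 in Ret null, 533 in Sema3d null and 352 in double null guts. The authors' deposited table gives a coefficient of -0.41 ± 0.08 with Ret null (adjusted p 4.56e-05, DESeq), and the one for double null guts -0.58 ± 0.09 (adjusted p 1.85e-09). In Sema3d null guts it was 0.026 ± 0.12, with an interval from -0.20 to 0.25. The scatter of its guts was ordinary, with residual deviances of 8.16 for Ret null, 7.69 for Sema3d null and 9.48 for double null, and scaling the test kept both calls. The neural crest markers moved with it, as given above, and their part in the Hoxb5 and Hoxd3 values was not tested.

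On the anterior side of Hoxb5, Hoxb3 fell in double null guts, with a coefficient of -0.19 ± 0.06 and an adjusted p of 0.0474 in the authors' deposited table (DESeq). The scaled test gave an adjusted p of 0.0532. With a residual deviance of 6.73 its own p was not scaled, and only the adjustment over all genes moved. The fitted levels of Hoxb3 were 1111 in wildtype, 1034 in Ret null, 1060 in Sema3d null and 975 in double null guts. Hoxb4, a gene known from blood stem cells, had -0.20 ± 0.07 in double null guts and -0.11 ± 0.09 in Ret null guts and was not called. Hoxb2 stood at -0.14 ± 0.08 and 0.05 ± 0.07 in the same order, and Hoxb1 at 0.24 ± 0.28 and 0.39 ± 0.26. In double null guts all 7 genes of groups 4 and 5 had negative coefficients, and their summed level per kb was 88.8% of wildtype; in Ret null guts it was 99.0%.

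On the posterior side, Hoxb6 to Hoxb9 had positive coefficients in Ret null and double null guts. They were positive in Sema3d null guts too, from 0.0086 for Hoxb6 to 0.18 for Hoxb7. Hoxb8, of group 8, rose in Ret null guts: its fitted level was 429 in wildtype, 511 in Ret null, 458 in Sema3d null and 454 in double null guts. Its coefficient in the authors' deposited table was 0.25 ± 0.07 with an adjusted p of 0.0180 (DESeq). The scaled test gave an adjusted p of 0.0216, through the adjustment over all genes only, since at a residual deviance of 8.26 its own p was not scaled. In double null guts the coefficient was 0.08 ± 0.07, not called. The interaction coefficient of Hoxb8 was -0.27 ± 0.13, with an unadjusted p of 0.0325 and an adjusted p of 0.671.

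Over the family, 3 of 36 Hox genes were called in Ret null guts (Hoxb5, Hoxb8 and Hoxd3), where 2.66% of all genes tested were called. In double null guts 3 were called (Hoxb3, Hoxb5 and Hoxd3), against 2.10% of all genes. In Sema3d null guts 0 were called, against 0.0404%, and for the interaction 0, against 0.164%. At an unadjusted p below 0.05 the counts were 9 in Ret null, 0 in Sema3d null, 10 in double null and 3 in the interaction, where 8.43, 4.53, 6.71 and 6.79% of all genes passed. The 3 of the interaction were Hoxa2 at -0.33 ± 0.15, Hoxc8 at -0.54 ± 0.26 and Hoxb8, none of them called. By the test scaled by the scatter the members called were 2, 0, 2 and 0, where 2.17, 0.00808, 1.82 and 0.0229% of all genes were.

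Signs were then counted by cluster and by paralogue group. Groups 6 to 8 were set apart from groups 4 to 8 with the values known, so their counts are a description only. Over groups 4 to 8, 11 of 15 genes had positive coefficients in Ret null, 11 in Sema3d null and 8 in double null guts. In Ret null guts all 7 Hoxc genes had positive coefficients, and 7 of the 9 Hoxd genes had negative ones. There 7 of the 8 genes of groups 6 to 8 had positive coefficients, with a median of 0.29, and 6 of them had an unadjusted p below 0.05: Hoxa6, Hoxa7, Hoxb7, Hoxb8, Hoxc6 and Hoxc8. Over all genes 2.96% were higher at that p. Scaled by the scatter, Hoxc6 had an unadjusted p of 0.0978 and Hoxc8 of 0.186. The coefficients of groups 9 and 10 were positive too, in 4 of 4 genes with a median of 0.34 and in 3 of 3 with a median of 0.24. Hoxa7 stood at 0.34 ± 0.12, Hoxb7 at 0.31 ± 0.11 and Hoxc8, which specifies thoracic segments, at 0.50 ± 0.22, each without a call after adjustment. Among all genes at a level of 50 or more, 53.6% had positive coefficients and the median was 0.0072. In double null guts all 8 genes of groups 6 to 8 were positive with a median of 0.16, where 52.5% of all such genes were positive. In Sema3d null guts 6 of the 8 were positive with a median of 0.056, where 50.2% of all such genes were. There 5 of the 7 Hoxc genes were positive and 7 of the 9 Hoxd genes negative, and Hoxc8 stood at 0.41 ± 0.22. The median over all 36 members was 0.060 for Ret null, 0.0044 for Sema3d null and 0.114 for double null; weighting each gene by its precision turned the last to -0.085.

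The plot of coefficients shows where these intervals overlap. The Ret null and double null columns share the wildtype guts, so their likeness is not independent. The summed level per kb of group 6 was 119% of wildtype with Ret null and 111% with double null, that of group 7 was 125 and 111%, and that of group 8 was 122 and 113%. With Sema3d null, groups 6, 7 and 8 stood at 103, 107 and 111%, so levels above wildtype were not confined to guts lacking Ret. Hoxc6 and Hoxc9, which set brachial and thoracic identity of motor neurons, had 0.33 ± 0.16 and 0.53 ± 0.26 in double null guts without a call. In Sema3d null guts they had 0.30 ± 0.19 and 0.41 ± 0.32, also without a call.

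**Figure D3:**
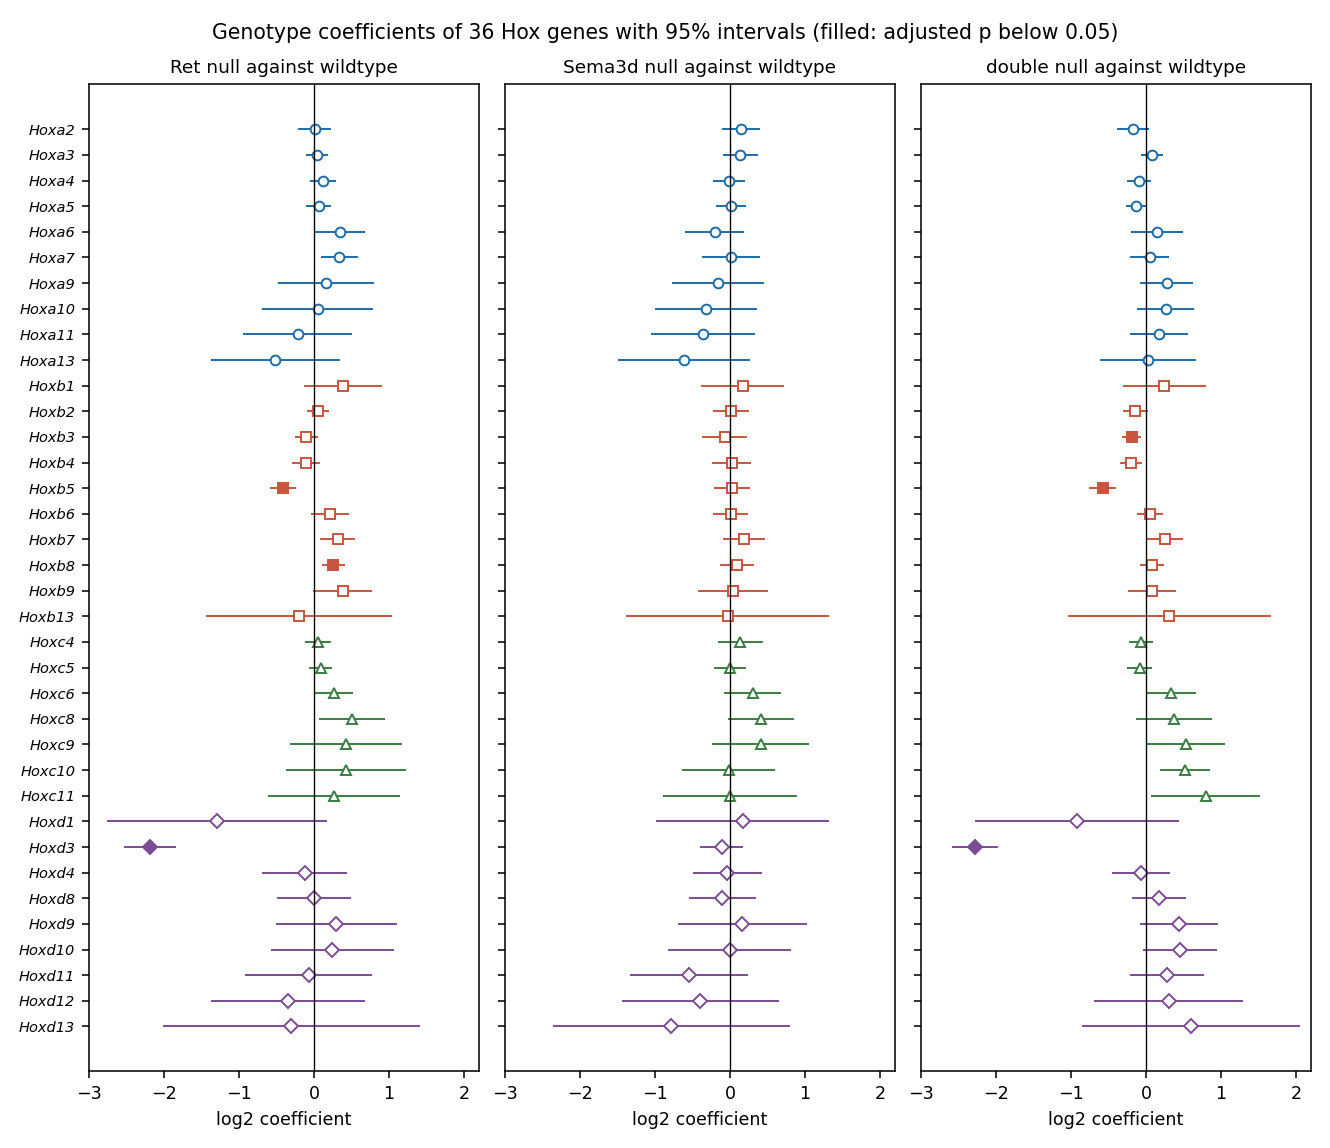
Log2 genotype coefficients of the 36 Hox genes against wildtype, with 95% intervals from the derived error, in 3 panels for Ret null, Sema3d null and double null; colour and shape mark the cluster and filled symbols are called. Hoxd3, Hoxb5 and Hoxb8 are filled for Ret null, Hoxd3, Hoxb5 and Hoxb3 for double null, and none for Sema3d null, and the intervals widen toward groups 9 to 13.

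The posterior genes, groups 9 to 13, were not called in any comparison, and their intervals were wide. In double null guts all 14 had positive coefficients, with a median of 0.31 and a range from 0.02 to 0.80, and their summed level per kb was 127% of wildtype. Hoxc10, a lumbar gene of group 10, had fitted levels of 58.0 in wildtype, 76.9 in Ret null, 57.0 in Sema3d null and 82.3 in double null guts. Its double null coefficient was 0.52 ± 0.16 in the authors' deposited table, with an adjusted p of 0.0616 (DESeq) that was 0.0429 over genes at a level of 50 or more and 0.703 when scaled by the scatter. Hoxc11 stood at 0.80 ± 0.36 and Hoxd10 at 0.45 ± 0.24.

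In Sema3d null guts 11 of the 14 posterior genes had negative coefficients, with a median of -0.10, and their summed level per kb was 89.6% of wildtype. In Ret null guts 8 of the 14 were positive, with a median of 0.10, and the sum was 109% of wildtype. The 7 genes of groups 11 to 13 summed to 69.3% of the wildtype level per kb in Sema3d null guts, 85.7% in Ret null guts and 120% in double null guts. Hoxd13 had fitted levels of 64.1 in wildtype, 51.0 in Ret null, 34.96 in Sema3d null and 91.2 in double null guts, yet its interaction coefficient of 1.72 ± 1.19 had an interval from -0.62 to 4.05. Hoxd12 at 1.05 ± 0.85, Hoxa13 at 1.15 ± 0.61 and Hoxd11 at 0.90 ± 0.49 were the next largest interaction coefficients, and none was called. Against wildtype, the derived errors of groups 11 to 13 ran from 0.19 (Hoxa11, double null) to 0.87 (Hoxd13, Ret null). Hoxc11 in double null guts had an interval from 0.08 to 1.51 (unadjusted p 0.0288, adjusted p 0.572, DESeq). At this precision smaller changes of the terminal genes by genotype could have gone undetected.

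The posterior genes stood out by the scatter of their guts instead. For Ret null, 13 of the 36 Hox genes had a residual deviance above 16.9, the 95% point for 9 degrees of freedom, where 0.813% of all genes did; 11 of the 13 belong to groups 9 to 13, and the other two are Hoxc8 and Hoxd3. In the Sema3d null table the count was 12, against 0.873% of all genes. In the double null table it was 4 (Hoxc8, Hoxd9, Hoxd10 and Hoxd11), against 0.847%. Over all guts, 13 members lay above 30.1, the point for 19 degrees of freedom, against 1.27% of all genes.

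Hoxa10, known for patterning the reproductive tract and lumbar region, had the highest residual deviance of the posterior members in the Ret null and Sema3d null tables. It reached 44.7 in the Ret null, 48.9 in the Sema3d null and 14.6 in the double null table, ranks 12, 6 and 336 of the genes listed. Hoxd10 reached 42.8, 36.3 and 23.1, Hoxd9 42.4, 32.4 and 21.3, and Hoxd11 37.0, 39.4 and 17.4. All were lower in the double null table, which shares its wildtype guts with the others. The derived errors were lower there too, at 0.19 for Hoxa10 against 0.37 in Ret null and 0.34 in Sema3d null. Genes of groups 1 to 7 other than Hoxd3 had residual deviances of 4.25 to 15.8 in the Ret null table, where the median of all genes at a level of 50 or more was 5.49.

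**Figure D4:**
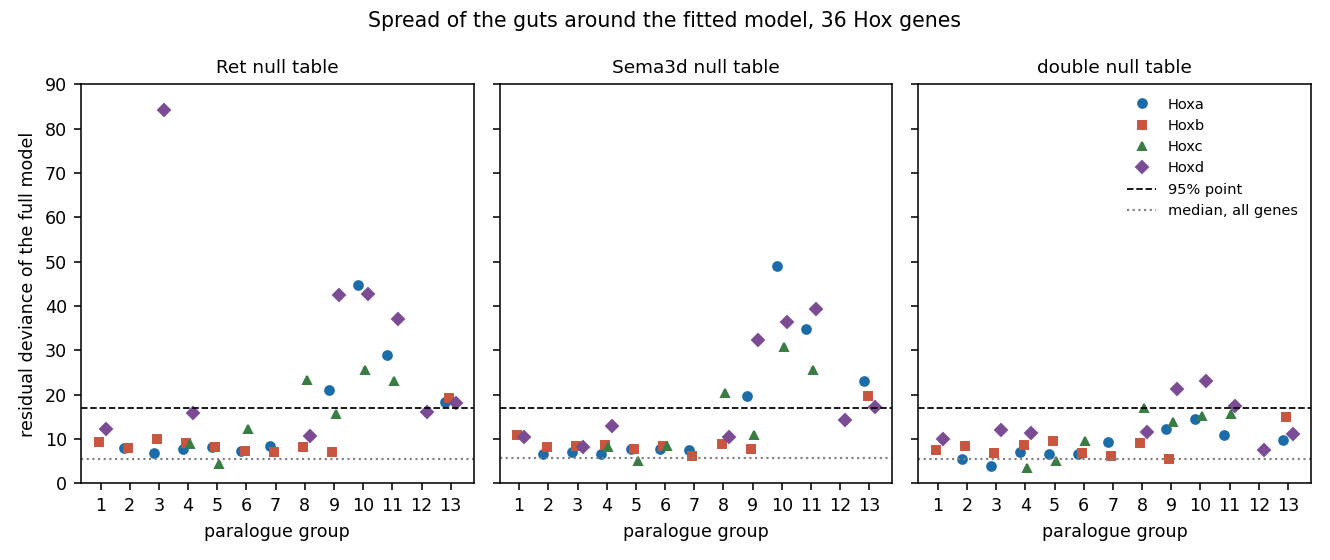
Residual deviance of the full model (9 degrees of freedom) against paralogue group for the 36 Hox genes in the Ret null, Sema3d null and double null tables; the dashed line is the 95% point at 16.9 and the dotted line the median of all genes at a level of 50 or more. Groups 9 to 11 rise to 44.7 and 48.9 in the first 2 panels and to 23.1 in the third, and Hoxd3 lies alone at 84.3 in the Ret null panel.

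Markers of gut region were set beside this scatter. The 6 markers of caecum, colon and hindgut had residual deviances from 4.17 to 10.97 in the Ret null table and from 4.43 to 15.2 in the Sema3d null table, and 0 of them lay above the 95% point. The 7 measured markers of the oesophagus, stomach, duodenum, pancreas and lung ranged from 4.97 to 13.3 and from 4.04 to 13.1. None of either list was called in any table. The posterior list summed to a fitted level of 1825 in wildtype, 1895 with Ret null, 1748 with Sema3d null and 1894 in double null guts. The anterior list summed to 2974, 3418, 3003 and 3070 in that order. Whether the stretch of gut collected has a part in the posterior Hox values was not tested.

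Sex was a term of each fit, without a p-value. In the table over all guts the male minus female coefficient was negative for all 14 posterior genes, with a median of -0.29 and a range from -0.51 to -0.03. The median was -0.0011 for groups 1 to 3, 0.0016 for groups 4 to 8 and 0.0041 for all genes at a level of 50 or more. The posterior genes are also those with the widest scatter, and their sex coefficients in the double null table had a median of 0.053, with 5 of 14 negative. With Ret null 12 of 14 were negative and with Sema3d null 11.

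Few of the genes that act with or above Hox proteins were called. Of 9 Hox cofactors of the TALE class, the Meis, Pbx and Pknox proteins that bind DNA together with Hox proteins, 0 were called in any table, and their summed level was 105% of wildtype in Ret null, 99.9% in Sema3d null and 103% in double null guts. Meis1 at 0.14 ± 0.04 in Ret null guts, with an adjusted p of 0.0837 in the authors' deposited table (DESeq), was not called. No measured ParaHox or Cdx gene and no posterior axis signal was called. These counts stand against the background shares of 2.66, 0.0404, 2.10 and 0.164% given above.

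Retinoic acid switches on anterior Hox genes, and 17 genes of its synthesis, transport and reception were listed, of which 16 had a row in the Ret null table. Aldh1a2, the main enzyme that makes retinoic acid in the embryo, rose in Ret null guts by 0.28 ± 0.08 (adjusted p 0.0282 in the authors' deposited table, DESeq). Polycomb and trithorax proteins hold Hox clusters silent or active, and 2 of 22 were called in Ret null guts, where 2.66% of all genes were, and 0 in the other comparisons. Pcgf2, a subunit of Polycomb complex 1, rose by 0.18 ± 0.05 (adjusted p 0.0471) and Jarid2, a partner of Polycomb complex 2, had -0.20 ± 0.05 (adjusted p 0.00565).

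Markers of other cell types were read as well. Of 10 mesenchyme and smooth muscle markers, 7 epithelial markers and 4 mesothelial markers, 0 were called in any comparison. Over all genes 2.66% were called in Ret null, 0.0404% in Sema3d null, 2.10% in double null guts and 0.164% for the interaction. Of the mesenchyme markers, 3 of 10 had an unadjusted p below 0.05 in Ret null guts (DESeq), where 8.43% of all genes did. In double null guts all 10 were positive, from 0.031 to 0.12. The 4 endothelial markers Pecam1, Cdh5, Tie1 and Kdr were all called higher in double null guts, with a summed level of 5299 against 4433 in wildtype, 4427 in Ret null and 4782 in Sema3d null guts. Their part in the Hox values of double null guts was not tested.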

How the data were processed

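The authors deposited 4 tables of DESeq 1.24.0 model fits. FastQC 0.11.5, Trimmomatic 0.36, STAR, RSEM 1.2.31 and the GRCm38 (mm10) build are listed, without roles, in the submitters' processing notes; none of the sources used here gives the strand setting of the counting. The deposited coefficients were read as log2 values. The headers name the model terms and no base; base 2 was inferred, since the fitted levels of a table then summed to 11.5 to 11.9 (in units of 1000000 normalised counts), against 432 to 455 with the natural base. The deposited deviances have no fixed range and were treated as a score of fit. The p-values that the authors deposited matched, within 4.91e-09, a chi-square test of the deviance difference, and those listed as 0 were recomputed.

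The derived error (after ±) is the size of the coefficient over the root of the drop in deviance. A fitted level is 2 raised to the intercept, at the midpoint of the sexes. Library totals were not analysed here, so the depth is unknown. Exon lengths came from GENCODE M21. The scaled test divides the deviance difference by the residual deviance per degree of freedom where that exceeds 1. It then takes p from an F distribution with 1 and the residual degrees of freedom. For all other genes p stays that of the chi-square test, and only the adjustment over all genes can move the adjusted p. Scripts (Python 3.11.15, pandas 2.3.3, scipy 1.17.1) were tested on simulated data. No count test was run. The members, lists and tests were chosen with earlier results of these data known. Named genes were all members at an unadjusted p below 0.05, the 10 highest, groups 11 to 13 and called list genes. Outside that rule and chosen after their values were seen were Hoxd1, Hoxd4, Hoxd8, Hoxd9, Hoxd10, Hoxa3, Hoxa9, Hoxa10, Hoxb1, Meis1, Gm14424, Gm28230 and Hoxd3os1. A result for 1 listed gene is not reported here. Alternatives are given in the closing section.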

Additional observations from a re-analysis of the deposited data

How the results depend on the processing

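The counts of Hox genes called stayed within 1.5 times under each alternative: 2 to 3 in Ret null, 0 in Sema3d null, 2 to 4 in double null and 0 for the interaction, over thresholds of 0.01 and 0.10, adjustment over genes at a level of 50 or more or over protein-coding genes, and the scaled test. At 0.01 Hoxb8 and Hoxb3 were not called. Hoxc10 was called in double null guts at 0.10 and under both narrower adjustments (adjusted p 0.0429 and 0.0471). The scaled test, chosen after seeing the data, called 534, 2, 450 and 6 genes over the whole tables against 654, 10, 518 and 43. The median double null coefficient of the members, 0.11, became -0.085 when weighted by the inverse square of the derived error. That weight is largest where the error is smallest. The median double null error was 0.10 for groups 1 to 3, 0.085 for groups 4 to 8 and 0.25 for groups 9 to 13. Positive there were 2 of 7, 8 of 15 and 14 of 14 genes. Which genes carried the turn was not tested. The other medians of genotype coefficients moved by less than the members' median derived error. The order of levels kept a rank correlation of 0.925 without division by length, where Hoxb3 replaced Hoxa5 as the highest gene and Hoxd3 replaced Hoxd10 as the highest of Hoxd. No paired analysis was possible because the tables hold no values per gut, and leaving out guts and dividing by coding length were not run. The derived error limits the posterior genes, at a median of 0.41 in Ret null guts against 0.11 for groups 4 to 8.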

Other observations

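The Hox clusters also carry non-coding and antisense transcripts. Of the rows inside the 4 clusters, with a margin of 20000 bases, that are not Hox members, 30 were measured in the Ret null table, and 1 (Gm14424) was called, where 2.66% of all genes were. In the scaled test that call was lost, at an adjusted p of 0.0587, through the adjustment over all genes only. The count was 0 of 31 for Sema3d null, 0 of 33 for double null and 0 of 35 for the interaction. Over all genes 0.0404, 2.10 and 0.164% were called, in the same order. Hotairm1, a long non-coding RNA at the anterior end of the Hoxa cluster, had a Ret null coefficient of 0.26 ± 0.17 and a double null coefficient of 0.30 ± 0.17. Hoxb3os, which runs antisense to Hoxb3 over 52.9% of its exon bases, had -0.044 ± 0.15 and 0.025 ± 0.14, while Hoxb3 itself had -0.10 ± 0.07 and -0.19 ± 0.06. Hoxb5os had 0.15 ± 0.27 and 0.22 ± 0.28 beside the fall of Hoxb5.

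Hoxa11os, transcribed antisense to Hoxa11 and overlapping 34.98% of its exon bases, shared the scatter of the posterior genes. Its residual deviance was 40.6 in the Ret null, 32.0 in the Sema3d null and 10.3 in the double null table, beside 28.9, 34.9 and 10.8 for Hoxa11. Its fitted wildtype level in the Ret null table was 69.5. These rows were chosen after their values were seen.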
